A study of Mus musculus with 18 samples.

Results

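Mouse embryonic stem (ES) cells grown on embryonic fibroblast feeders labelled p53-defective were compared with ES cells grown on control feeders, with 3 libraries in each group (replicates 1, 2 and 3). These 6 libraries are among 18 in the series, and 15389 of 19630 genes passed the filter on low counts and were tested. Each library of both groups holds RNA of ES cells together with that of their feeders. The 12 other libraries, 3 a group, are the separate cultures: p53-defective feeders alone, control feeders alone, ES cells grown on control feeders from which the feeders were then removed, and ES cells for which ATN161, a peptide that blocks integrin α5β1, replaced the feeders. The labels give neither the nature of the p53 defect, nor the strain, passage or mitotic treatment of the feeders, nor the ES line, nor the ratio in which the cells were plated, and they do not say how feeders were removed. Nor is it stated that the replicates came from separate cultures, and p-values thus measure the spread between these libraries, which may be technical. The question named by the series is how p53 in the feeder environment, through fibronectin and integrins, bears on ES cell pluripotency.

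As background, feeder fibroblasts support ES cells in culture by secreting cytokines such as LIF, which signals through STAT3, and by laying down extracellular matrix that ES cells bind through integrins. ES cells hold the pluripotent state with a set of transcription factors around Pou5f1, Sox2 and Nanog, while FGF-ERK signalling moves them towards differentiation and BMP and WNT signals oppose it. The p53 protein is a transcription factor that arrests the cell cycle or starts cell death under stress, and fibroblasts that lack its function can escape senescence.

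Levels are given as CPM, read counts divided by the TMM-scaled library size, for libraries 1, 2 and 3 of a group, and as mean ± SD (n = 3) for the separate cultures. A gene was called higher or lower where its adjusted p was below 0.05 in edgeR's quasi-likelihood test with Benjamini-Hochberg adjustment over all genes tested, and log2 fold changes are those of the p53-defective against the control co-culture. A number alone in parentheses after a gene is its log2 fold change, whose SE over the 1034 called genes of the lists and of the named extremes had a median of 0.11 and was at most 0.32 in 95% of them. Of the genes tested, 12829 (83.4%) were called, 5638 (36.6%) higher and 7191 (46.7%) lower on p53-defective feeders. The change was at least 2-fold in 2773 of the higher and 4532 of the lower genes. In 12538 of the called genes the 3 libraries of each group did not overlap, so a statement that groups were apart holds for most called genes. For the largest changes it was a condition of being named. With so many genes called, the size of a change and its place beside the median of all genes (-0.18) say more of a gene than its call does. The numbers called in each gene list below are to be read beside the shares of all genes, 36.6% higher and 46.7% lower.

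The share of ES cell RNA was the coarsest difference. The 432 genes at least 8-fold higher in both ES cultures without feeders than in both feeder cultures, chosen without any co-culture library, had a median log2 fold change of -3.43, with 426 called lower and 2 higher. For each gene the level was taken as a percentage of its mean in feeder-depleted ES cells, with 0.5 CPM added to both. The median over these genes was 8.99, 10.1 and 9.64% on p53-defective feeders and 80.1, 80.7 and 80.6% on control feeders. In feeders alone it was 2.73 to 2.98%, low values that the added 0.5 CPM raises. All 55 genes that were as specific to feeders and within 2-fold between both feeder cultures were called higher, with a median of 2.37. In bulk RNA, fewer ES cells and less RNA per ES cell cannot be told apart, and the same holds for feeders. Trp53 itself was at 158, 160 and 141 CPM on p53-defective feeders and 289, 300 and 291 CPM on control feeders, a log2 fold change of -0.94 ± 0.09 (SE) at an adjusted p of 1.97e-09; it was at 296 ± 44.9 CPM in p53-defective feeders alone and 119 ± 6.75 in control feeders. As the kind of defect is not given, the Trp53 transcript level does not check the label.

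Y-linked genes differed between the co-cultures. The Y-linked genes Ddx3y, an RNA helicase, Uty, Kdm5d and Eif2s3y summed to 4.97, 4.49 and 4.46 CPM on p53-defective feeders and 37.6, 39.5 and 42.6 CPM on control feeders. Both feeder cultures alone were low (2.39 CPM in p53-defective and 4.02 in control feeders) and feeder-depleted ES cells were higher, at 32.5 CPM. ES cells with ATN161 and no feeders lay between them, at 10.2 CPM, so the sum did not follow the ES cell transcripts across all groups. All 4 genes were called lower in co-culture on p53-defective feeders, with a median of -3.62 and of -0.25 on the ES scale defined next. The feeders alone differed by gene. Eif2s3y made up most of the sum in p53-defective feeders (2.31 CPM). Ddx3y and Kdm5d were at 0 there, against 1.26 and 0.48 CPM in control feeders.

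Since 1 scaling cannot serve both cell types, each gene was also placed on an ES scale, in which libraries are scaled on the 432 ES-specific genes, and on a feeder scale set by the 55 feeder-specific genes. The ES scale moved the median of all genes by 3.38, so that 13504 genes (87.8%) were called higher and 411 (2.67%) lower. The feeder scale moved it by -2.33, with 484 genes (3.15%) called higher and 14261 (92.7%) lower. The direction of a gene list therefore depends on the scale: of the 32 lists with a positive median only 2 stayed positive on the feeder scale (mesothelial markers and keratins), and of the 24 with a negative one only 4 stayed negative on the ES scale (ES cell markers, Dppa and RNA-binding factors, Y-linked genes and formative genes). The distance of a list from the median of all genes moved by at most 0.05 over the 3 scales, apart from the macrophage markers (0.87). Each list median below is followed by its value on the scale that could turn it. The plot of list members shows how far each list lies from the median of all genes.

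**Figure D1:**
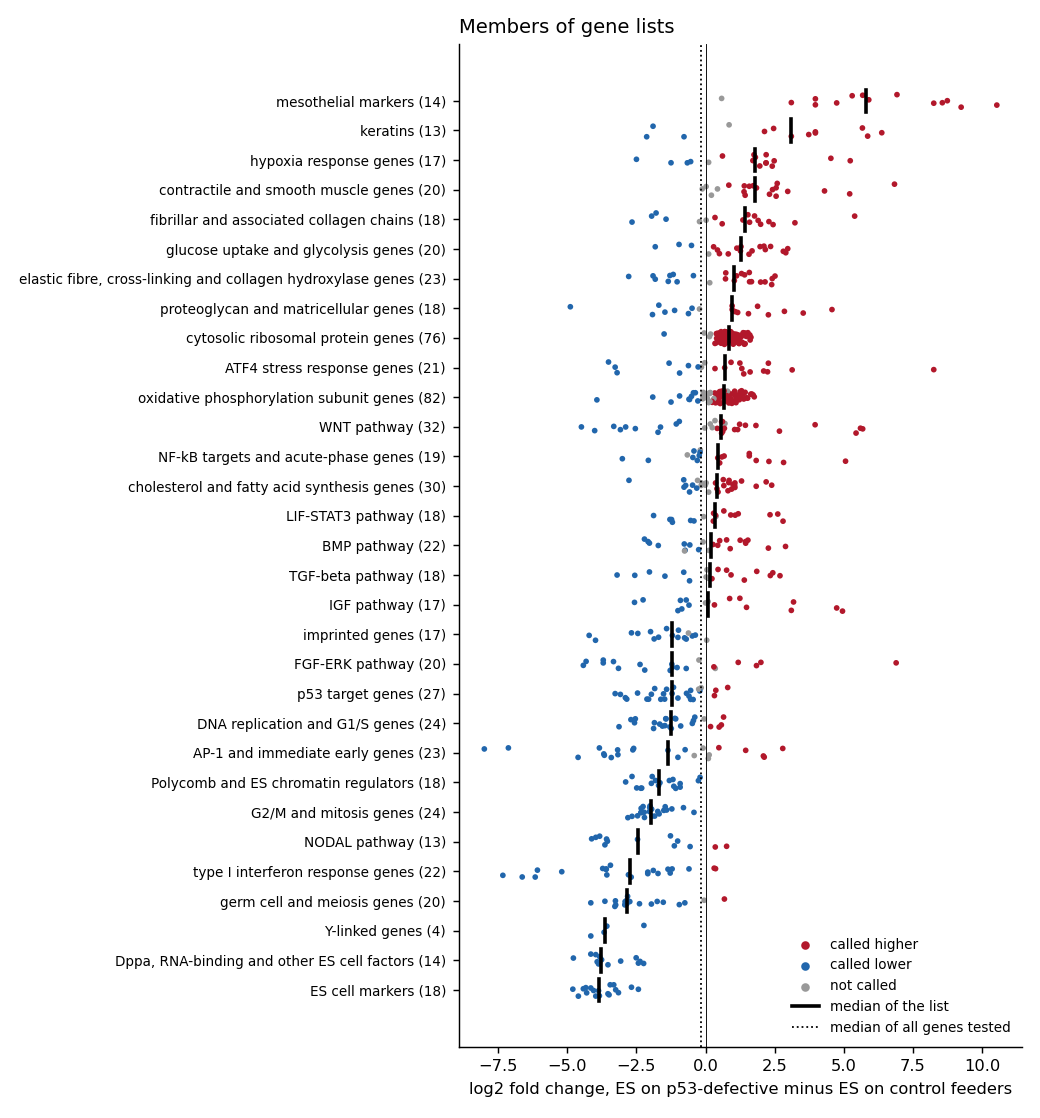
Log2 fold change of each member (dots) of gene lists, ES cells on p53-defective against control feeders under TMM scaling, with the number of members tested in parentheses; red dots were called higher, blue lower and grey neither, black bars are list medians and the dotted line is the median of all genes, -0.18. Mesothelial markers (median 5.79) stand farthest to the right and ES-rich lists farthest to the left. On the feeder scale all medians with a positive sign except those of the mesothelial markers and keratins turn negative, and on the ES scale the negative ones plotted here turn positive except for ES cell markers, Dppa and RNA-binding factors, and Y-linked genes.

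Library properties differed in ways that move with the comparison. Depth was alike, at 18.62 to 19.33 M counts in tested genes on control and 19.06 to 19.15 M on p53-defective feeders. The TMM-scaled CPM of all tested genes summed to 1.13 to 1.19 M on p53-defective feeders and 0.914 to 0.921 M on control feeders. In the separate cultures they summed to 0.954 to 1.02 M, and summed levels of lists hold this difference. Within the group, however, the p53-defective co-culture spread more: the median coefficient of variation was 9.23% against 3.64%, and 10 genes held 6.9 to 7.13% of its counts against 4.25 to 4.31%. Its replicates 2 and 3 deviated from the group mean in opposite ways along transcript length, with Spearman correlations of -0.69 and 0.72 across genes, while replicate 1 gave -0.10 and control co-culture libraries -0.16 to 0.09. Replicates 2 and 3 of the feeder-depleted ES cells (0.46 and -0.38) and of the ES cells with ATN161 (0.31 and -0.37) differed in the same manner to a smaller extent. Between the groups, the 2121 shortest of 10596 genes at 10 CPM or more (transcripts up to 1844 bases) had a median log2 fold change of 0.58 and the 2120 longest (5246 bases or more) one of -0.45, where the feeders alone showed 0.08 and 0.09. The part of this trend in single results was measured by removing it, an alternative chosen after the data were seen, and values without the trend stand beside the results they bear on.

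**Figure D2:**
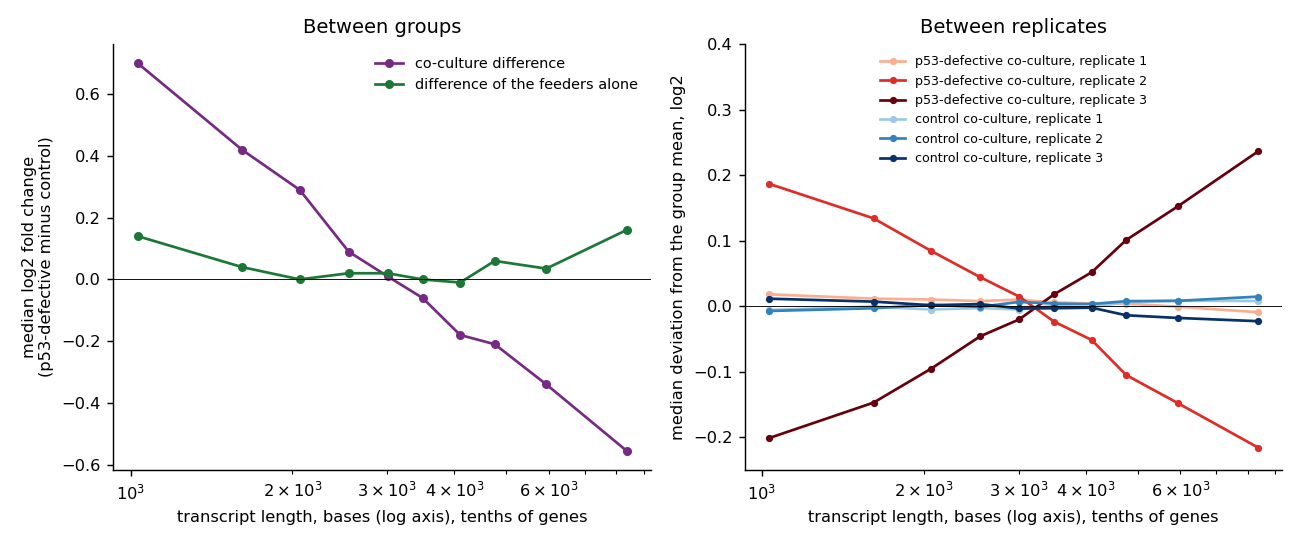
Median log2 difference against transcript length (bases, log axis) for 10 bins of 10596 genes: left, between groups in co-culture (purple) and between the feeders alone (green); right, the deviation of each co-culture library from its group mean. The co-culture difference falls from the short to the long genes while that of the feeders stays near 0, and the p53-defective co-culture replicates 2 and 3 tilt in opposite directions.

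The largest shared rise was in markers of mesothelium, the epithelium that lines body cavities. Of 14 tested markers, 13 were called higher and 0 lower, with a median of 5.79 (3.46 on the feeder scale; 5.55 with Muc16, which had no count in the control co-culture, at its bound). Upk3b, a uroplakin of mesothelial membranes, was at 697, 790 and 695 CPM on p53-defective feeders and 0.246, 0.619 and 0.584 CPM on control feeders, a log2 fold change of 10.53 ± 0.34 (SE) at an adjusted p of 1.55e-14. Msln, the surface glycoprotein mesothelin, was at 658, 608 and 733 CPM on p53-defective feeders and 2.11, 1.24 and 1.95 CPM on control feeders, a log2 fold change of 8.56 ± 0.17 (SE) at an adjusted p of 7.68e-21. Wt1, a transcription factor of the mesothelium and kidney, was at 96.4, 91.7 and 102 CPM on p53-defective feeders and 0.884, 0.572 and 0.924 CPM on control feeders (6.92). All 3 p53-defective libraries lay far above all 3 control libraries for each of these genes. The p53-defective feeders alone were also high, at 458 ± 181 CPM for Upk3b, 775 ± 96 for Msln and 112 ± 9.16 for Wt1, and control feeders alone held 6.5 ± 1.05, 28.1 ± 3.12 and 0.747 ± 0.212 CPM.

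The list as a whole summed to 2325, 2389 and 2417 CPM on p53-defective and 25.4, 26.1 and 25.4 CPM on control feeders, beside 2781 CPM in p53-defective feeders alone, the separate culture with the highest level. Members differed in how co-culture compared with those feeders alone. Upk1b was at 275, 284 and 276 CPM in the p53-defective co-culture and 91.7 ± 30.3 in those feeders alone, whereas Pkhd1l1, a large membrane protein, was at 42.2, 37.6 and 57.5 CPM in co-culture and 800 ± 87.4 in feeders alone. Upk1b, Rspo1, Slpi, Lrrn4, Krt19 and Krt7 exceeded all libraries of the separate cultures by the 2-fold rule used further on. Muc16, which encodes CA125, was at least 43.1-fold higher, taking 3 counts over the control group as the floor.

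Keratins, the intermediate filaments of epithelia, rose as well. Of 13 list members, with the non-keratin Sfn among them, 9 were called higher, 3 lower and 1 neither, median 3.10 (0.77 on the feeder scale). Krt19 was at 118, 126 and 110 CPM on p53-defective feeders and 7.76, 7.38 and 7.44 CPM on control feeders, a log2 fold change of 3.97 ± 0.10 (SE) at an adjusted p of 2.75e-19. Krt8, its partner in simple epithelia, was at 78.2, 78.4 and 81 CPM on p53-defective feeders and 13.9, 15.1 and 14.2 CPM on control feeders, and the feeders alone held 0.385 ± 0.0927 CPM where p53-defective and 1.8 ± 0.118 CPM where control. For both keratins the groups did not overlap. Among other members Krt13 (6.37) and Krt14 (5.67) were called higher, and Sfn, a 14-3-3 protein of stratified epithelium, lower (-2.13). The epithelial adhesion genes of ES cells went the other way, with Cdh1 (-3.38) and Epcam (-3.44), falls near the median of the ES-specific genes (-3.43). Cdh1 was at 24.8, 24.2 and 38 CPM on p53-defective feeders and 299, 308 and 299 CPM on control feeders. The mesenchymal cadherin Cdh2 rose (2.95). Of cadherins and epithelial-mesenchymal factors as a list, 8 of 23 were called higher, 13 lower and 2 neither, median -0.75 (2.64 on the ES scale).

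Other genes with the largest rises were likewise near 0 on control feeders. Pax3, a transcription factor of neural crest and muscle precursors, was at 23.5, 23.6 and 29.5 CPM on p53-defective feeders and 0, 0.0476 and 0 CPM on control feeders. Foxa2, a pioneer factor of endoderm, was at 13.5, 15.8 and 13.5 CPM on p53-defective feeders and 0, 0.0953 and 0 CPM on control feeders, and Smpd3, a neutral sphingomyelinase, at 150, 148 and 168 CPM on p53-defective feeders and 0.442, 0.238 and 0.584 CPM on control feeders. All 3 were separate between groups and present in p53-defective feeders alone (18 ± 1.37, 11.5 ± 1.97 and 166 ± 55.5 CPM). Edn2, an endothelin (9.36), and Tcf21, a mesenchymal bHLH factor (9.31), rose with them. The pseudogene Rpl34-ps1 went from 0.0982, 0 and 0.0973 to 597, 662 and 498 CPM, and the Ifi200 family gene Ifi202b from 0, 0.0476 and 0.0486 to 65.6, 65.3 and 54.5 CPM; reads of near-identical copies can be split between them in the counting, so the level of either is uncertain. Gbp2b, a guanylate-binding protein, had no count in the control co-culture and was at least 289-fold higher with 3 counts over the group as the floor.

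Among the largest falls were genes of feeders, of ES cells and of immediate responses. Agtr2, the angiotensin type 2 receptor, was at 0.303, 0.499 and 0.713 CPM on p53-defective feeders and 162, 166 and 174 CPM on control feeders, a log2 fold change of -8.35 ± 0.35 (SE) at an adjusted p of 5.25e-12. It was at 66.3 ± 27.3 CPM in control feeders alone and 0 in p53-defective feeders. Apod, a lipocalin, was at 0.606, 0.25 and 0.475 CPM on p53-defective feeders and 58, 56.7 and 68.8 CPM on control feeders (-7.08). The groups were apart for both genes, as the rule for naming the largest falls required. The other 10 of the 12 largest falls were Fosb (-8.0) and Fos (-7.13), both AP-1 subunits, the interferon-induced Oas2 (-7.33), Rsad2 (-6.63), Iigp1 (-6.30), Trim30d (-6.26), Ifi44 (-6.16) and Cxcl9 (-5.98), and the ES-specific Gm15023 (-6.59) and Nphs1 (-5.94).

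Contractile genes rose almost throughout: 16 of 20 were called higher, 0 lower and 4 neither, median 1.78 (-0.55 on the feeder scale), and without replicate 2 of the p53-defective co-culture 1 member was called lower. Their summed level was 15324, 17501 and 14649 CPM on p53-defective feeders and 2989, 2884 and 2842 CPM on control feeders. Acta2, smooth muscle actin and the usual marker of myofibroblasts, was at 4727, 5762 and 4194 CPM on p53-defective feeders and 147, 123 and 126 CPM on control feeders, a log2 fold change of 5.21 ± 0.26 (SE) at an adjusted p of 7.32e-12; it was 2.88 on the feeder scale. The feeders alone held 754 ± 342 and 631 ± 34.9 CPM of Acta2, p53-defective and control. Cnn1, calponin, was at 189, 234 and 162 CPM on p53-defective feeders and 2.16, 1.19 and 1.8 CPM on control feeders (6.83), against 15 ± 9.74 CPM in p53-defective feeders alone. Each p53-defective co-culture library exceeded every library of the separate cultures for both genes. Tropomyosins followed, with Tpm1 (2.55) and Tpm4 (2.42), and the actin-bundling Tagln2 (2.31). With the length trend removed the list stood at a median of 1.94, with 17 members called higher and 1 lower.

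Matrix genes split by class. Of fibrillar and associated collagen chains, 12 of 18 were called higher, 4 lower and 2 neither, median 1.44 (-0.90 on the feeder scale). Between the feeders alone the median of this list had the opposite sign, at -2.10. Its summed means there were 8618 CPM in p53-defective and 35624 CPM in control feeders. Col1a1, the main chain of type I collagen, was at 7907, 6256 and 10524 CPM on p53-defective feeders and 1559, 1447 and 1541 CPM on control feeders. Col8a2 was at 42.4, 46.9 and 43.6 CPM on p53-defective feeders and 1.08, 0.953 and 1.12 CPM on control feeders (5.39), and 3.06 on the feeder scale, the highest of the feeder-specific genes there. Col18a1, the precursor of endostatin, went against the list at 200, 174 and 245 CPM on p53-defective feeders and 1325, 1313 and 1285 CPM on control feeders (-2.66). The groups were apart for all 3 collagens. Of basement membrane genes, 7 of 19 were called higher, 7 lower and 5 neither, median 0.03 (-2.31 on the feeder scale), a median that changed sign without replicate 3 of the p53-defective co-culture (-0.11) and with the GC trend removed (-0.13). The type IV collagen chains Col4a6 (159, 133 and 209 against 1.57, 1.76 and 1.12 CPM) and Col4a5 (2.68) rose while agrin (Agrn, -1.77) and nidogen 2 (Nid2, -2.05) fell.

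Genes of matrix assembly were mostly higher: in the elastic fibre, cross-linking and hydroxylase list, 14 of 23 were called higher, 8 lower and 1 neither, median 1.04 (-1.30 on the feeder scale). The median of this list between the feeders alone was -1.78. The prolyl hydroxylase P4ha2 was at 419, 387 and 474 CPM on p53-defective feeders and 76.3, 72.7 and 75.2 CPM on control feeders, and P4ha1 (2.41) and the lysyl hydroxylase Plod1 (2.15) also rose. The groups were apart for P4ha2. Among proteoglycan and matricellular genes, 10 of 18 were called higher, 7 lower and 1 neither, median 0.96 (-1.37 on the feeder scale). Here too the median between the feeders alone was negative, at -2.34. Ccn4, a matricellular WNT target, was at 209, 195 and 225 CPM on p53-defective feeders and 19, 18 and 17.5 CPM on control feeders (3.53), whereas the small proteoglycan lumican (Lum) was at 3.4, 4.43 and 2.97 CPM on p53-defective feeders and 106, 97.7 and 116 CPM on control feeders (-4.89). Of matrix proteases and inhibitors, 17 of 28 were called higher, 10 lower and 1 neither, median 0.77 (-1.57 on the feeder scale). Between the feeders alone this median was -1.50. The metalloproteinase inhibitor Timp3 was at 2422, 2205 and 2681 CPM on p53-defective feeders and 99.8, 91.7 and 94.1 CPM on control feeders (4.68), while the inhibitor Serpine2 was at 80, 82.8 and 83.4 CPM on p53-defective feeders and 876, 845 and 849 CPM on control feeders (-3.38) and the gelatinase Mmp9 (-4.32) and cathepsin K (Ctsk, -3.69) fell.

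Fibronectin and its receptor were measured in the same libraries. Fn1 was at 10366, 8025 and 14714 CPM on p53-defective feeders and 2365, 2297 and 2206 CPM on control feeders, a log2 fold change of 2.27 ± 0.14 (SE) at an adjusted p of 1.69e-12, a rise of the size of the feeder-specific genes, since it was -0.07 on the feeder scale. Its main receptor chains Itga5 (0.93) and Itgb1 (1.2) were called higher under the common scaling. Unlike that of Fn1, both rises were well under the median of the feeder-specific genes (2.37). Of integrin chains as a list, 8 of 18 were called higher, 7 lower and 3 neither, median 0.25 (-2.08 on the feeder scale), or -0.19 with the GC trend removed. Between the feeders alone the integrin median was -1.16. The laminin-binding Itga7 was at 122, 114 and 158 CPM on p53-defective feeders and 6.09, 5.67 and 6.86 CPM on control feeders (4.41) and Itga3 rose too (2.37), while Itga4, a receptor for fibronectin and VCAM1, fell (-3.61), as did Itga8 (-2.77).

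Of YAP-TEAD pathway genes, 10 of 21 were called higher, 8 lower and 3 neither, median 0.17 (-2.17 on the feeder scale). Ankrd1, a muscle ankyrin repeat protein and common readout of YAP activity, was at 232, 235 and 214 CPM on p53-defective feeders and 11, 9.81 and 10.5 CPM on control feeders (4.44); it was at 283 ± 19.9 CPM in p53-defective and 5.73 ± 0.612 in control feeders alone, so the co-culture difference had the direction of the feeders. Nt5e, the ectonucleotidase CD73, rose (4.25), and the LIM protein Ajuba fell (-0.99).

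Glycolytic enzymes and hypoxia-responsive genes rose together and rose beyond either cell type grown apart. Of 20 glycolysis genes 16 were called higher, 3 lower and 1 neither, median 1.27 (-1.07 on the feeder scale), and 14 exceeded all 12 libraries of the separate cultures. Tpi1, triose phosphate isomerase, was at 2750, 3166 and 2407 CPM on p53-defective feeders and 367, 336 and 359 CPM on control feeders, a log2 fold change of 2.97 ± 0.09 (SE) at an adjusted p of 8.25e-18. The separate cultures held 457 ± 28.4 CPM of Tpi1 in p53-defective feeders, 302 ± 18.9 in control feeders and 171 ± 9.4 in feeder-depleted ES cells. Pgam1, phosphoglycerate mutase, was at 3822, 3976 and 3435 CPM on p53-defective feeders and 967, 947 and 961 CPM on control feeders (1.97). Slc16a3, the lactate exporter MCT4, was at 490, 472 and 524 CPM on p53-defective feeders and 70.6, 59.6 and 68.7 CPM on control feeders (2.90). For each of these genes the 3 p53-defective libraries stood clear of the 3 control libraries. The liver-type phosphofructokinase Pfkl (2.35) and phosphoglycerate kinase Pgk1 (2.16) rose too; the genes that fell were the glucose transporter Slc2a3 (-1.82), hexokinase 2 (Hk2, -0.96) and platelet-type phosphofructokinase (Pfkp, -0.51).

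Summed over the list, glycolysis genes were at 41531, 45455 and 38375 CPM on p53-defective and 16791, 16048 and 16490 CPM on control feeders, beside 9025 CPM in p53-defective feeders, 6636 in control feeders, 12267 in feeder-depleted ES cells and 14721 with ATN161. Both co-cultures were thus above every separate culture, and the p53-defective one the farther. The scaled sum over all tested genes was also highest in the p53-defective co-culture, and the list sums were not adjusted for it. Hypoxia response genes gave the same picture: 12 of 17 were called higher, 4 lower and 1 neither, median 1.80 (-0.53 on the feeder scale), with 9 of 17 above all separate cultures. Ndrg1, a stress-induced gene of hypoxic cells, was at 1733, 1618 and 1789 CPM on p53-defective feeders and 47.7, 42 and 47.3 CPM on control feeders (5.23), and the carbonic anhydrase Car12 at 267, 239 and 307 CPM on p53-defective feeders and 10.9, 11.1 and 13.2 CPM on control feeders (4.53). Egln1, the oxygen sensor that marks HIF for degradation, was at 409, 407 and 424 CPM on p53-defective feeders and 78.1, 68.2 and 75.3 CPM on control feeders, and Vegfa, the angiogenic factor, at 290, 296 and 334 CPM on p53-defective feeders and 71.8, 64.6 and 66.5 CPM on control feeders. Bnip3, a mitophagy receptor, rose (2.19) and Epas1, which encodes HIF-2α, fell (-2.50). Removing the length trend left glycolysis at 17 higher and 3 lower (median 1.13) and hypoxia at 13 and 4 (1.66).

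Promoters of the strongest members that hold the HIF motif core are shown because these 2 lists moved as a group. In the window from 250 bases before to 50 after the gene start (RefSeq, GRCm38.p6), ACGTG on either strand was present in 12 of 19 glycolysis promoters (63.2%) and 11 of 15 hypoxia promoters (73.3%), against 21.8% of 27025 promoters in all; a match is a description, not a bound site. Below are the 250 bases before the start of Pgam1 (chr19:41911621-41911870, plus strand) and Egln1 (chr8:124949255-124949504, minus strand), each 5′ to 3′ on the strand of its gene, with the motif in capitals.
Pgam1: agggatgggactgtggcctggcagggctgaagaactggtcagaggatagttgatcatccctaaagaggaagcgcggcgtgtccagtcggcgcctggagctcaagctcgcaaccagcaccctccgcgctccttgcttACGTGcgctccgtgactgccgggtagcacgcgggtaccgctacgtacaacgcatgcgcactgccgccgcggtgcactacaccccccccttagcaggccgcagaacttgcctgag
Egln1: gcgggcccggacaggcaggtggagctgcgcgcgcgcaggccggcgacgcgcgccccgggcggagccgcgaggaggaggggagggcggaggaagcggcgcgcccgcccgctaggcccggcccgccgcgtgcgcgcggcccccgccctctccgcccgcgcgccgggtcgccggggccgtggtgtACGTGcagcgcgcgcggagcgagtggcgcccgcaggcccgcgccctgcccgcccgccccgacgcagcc

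Signals that act on ES cells changed by ligand. In the LIF-STAT3 pathway, 10 of 18 were called higher, 6 lower and 2 neither, median 0.33 (-2.01 on the feeder scale). Lif, the ligand, was at 16.1, 18.8 and 15 CPM on p53-defective feeders and 66, 57.6 and 60.9 CPM on control feeders, a log2 fold change of -1.88 ± 0.11 (SE) at an adjusted p of 4.37e-13. Socs3, the feedback inhibitor and a STAT3 target, was at 63.7, 76.2 and 58.8 CPM on p53-defective feeders and 155, 163 and 149 CPM on control feeders (-1.23). For both, all p53-defective libraries were below all control libraries. The receptor Lifr fell (-0.54), its partner Il6st was not called (-0.07), and Stat3 was called higher (0.29), as were the related cytokines Clcf1 (2.61) and Ctf1 (2.80) and the kinase Jak2 (2.33).

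In the FGF-ERK pathway, 5 of 20 were called higher, 13 lower and 2 neither, median -1.21 (2.18 on the ES scale). Fgf4, the ligand that ES cells make, was at 5.82, 7.05 and 5.05 CPM on p53-defective feeders and 127, 126 and 130 CPM on control feeders (-4.42, and -1.04 on the ES scale). Fgf5, a marker of primed epiblast that fibroblasts can also express, rose from 0.688, 0.286 and 0.195 to 47.7, 41.3 and 50.9 CPM (6.89); p53-defective feeders alone held 17.5 ± 6.08 CPM. The groups did not overlap for either ligand. Fgf7, a mesenchymal ligand, fell (-4.32), and the receptor Fgfr2 rose (1.84). Feedback inhibitors and targets of ERK fell: Spry2 was at 7.4, 9.86 and 9.21 CPM on p53-defective feeders and 119, 117 and 107 CPM on control feeders (-3.70), with Spry4 (-3.33) and Etv5 (-3.70). These falls were near the median of the ES-specific genes (-3.43), and on the ES scale Etv5 was -0.32 and not called. In the NODAL pathway, 2 of 13 were called higher, 11 lower and 0 neither, median -2.46 (0.92 on the ES scale). The ligand Nodal was at 4.91, 7.8 and 7.13 CPM on p53-defective feeders and 75.1, 80.1 and 76.8 CPM on control feeders (-3.55). The coreceptor Tdgf1 fell by a like amount (-3.97), as did Gdf3 (-3.83) and the antagonists Lefty1 (-3.64) and Lefty2 (-4.12). On the ES scale Nodal was -0.17 and not called, with Tdgf1 at -0.60, Gdf3 at -0.45, Lefty1 at -0.27 and Lefty2 at -0.74. Smad3 (0.76) and the proprotein convertase Furin (0.35) were called higher under the common scaling.

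Of BMP pathway genes, 11 of 22 were called higher, 8 lower and 3 neither, median 0.19 (-2.15 on the feeder scale). The ligand Bmp4 was at 76.3, 72.7 and 77.2 CPM on p53-defective feeders and 9.53, 10.1 and 10.9 CPM on control feeders, a log2 fold change of 2.89 ± 0.15 (SE) at an adjusted p of 1.08e-13, with 96.9 ± 29 CPM in p53-defective feeders alone. The ID targets Id1 (1.45) and Id3 (0.89) and the feedback inhibitor Smad6 (2.27) were called higher, while Smad7, another inhibitory SMAD, fell (-2.03), as did the ligand Bmp2 (-2.08). Of WNT pathway genes, 17 of 32 were called higher, 10 lower and 5 neither, median 0.57 (-1.76 on the feeder scale). The ligands Wnt11 and Wnt4 were at 52.9, 52.7 and 52.5 and 35.2, 43.5 and 37.4 CPM on p53-defective feeders and at 1.23, 1.05 and 1.36 and 1.08, 0.619 and 0.681 CPM on control feeders. All 3 p53-defective libraries were above the control libraries for both, but p53-defective feeders alone matched the co-culture only for Wnt11 (60.1 ± 2.34 CPM) and were low for Wnt4 (2.92 ± 0.777). Of the WNT agonists of the R-spondin family, Rspo1 rose (5.68) and Rspo2 fell (-4.49). The Dickkopf family member Dkk3 fell to 8.67, 7.61 and 7.25 from 58.9, 57.8 and 57.6 CPM, the receptor Fzd5 fell (-2.54), and the pathway target Axin2 was not called (0.24).

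All 3 TGF-beta ligands were called higher, Tgfb1 (1.4), Tgfb2 (2.69) and Tgfb3 (2.34), with the latent binding protein Ltbp3 (2.43), while the coreceptor endoglin (Eng, -2.56) and the distant ligand Gdf15 (-3.20) fell; over the list, 9 of 18 were called higher, 6 lower and 3 neither, median 0.16 (-2.18 on the feeder scale). In the IGF pathway, 8 of 17 were called higher, 7 lower and 2 neither, median 0.09 (-2.26 on the feeder scale), and the binding proteins that hold IGF outside cells moved apart. Igfbp3 was at 747, 825 and 801 CPM on p53-defective feeders and 25.9, 24.3 and 26.8 CPM on control feeders, and Igfbp6 rose as well (4.74), whereas Igfbp2 was at 64.9, 83.1 and 70 CPM on p53-defective feeders and 367, 345 and 335 CPM on control feeders. Groups were apart for Igfbp3 and Igfbp2. Igfbp3 was at only 44.3 ± 9.8 CPM in p53-defective feeders alone and 618 ± 74.1 in control feeders, so that its order in co-culture was opposite to that of the feeders. Among angiogenic and EGF-family growth factors, 13 of 21 were called higher, 8 lower and 0 neither, median 0.49 (-1.85 on the feeder scale). The placental growth factor Pgf was at 86.2, 91.9 and 86.3 CPM on p53-defective feeders and 10.9, 11 and 12.7 CPM on control feeders (2.94), with Pdgfc (1.78) and Vegfb (1.46) also higher and the hepatocyte growth factor Hgf lower (-3.49).

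Of chemokines and cytokines, 8 of 27 were called higher, 16 lower and 3 neither, median -0.66 (2.72 on the ES scale), where 36.6% of all genes were called higher and 46.7% lower. Il33, an alarmin of the IL-1 family, was at 196, 221 and 214 CPM on p53-defective feeders and 12.2, 12.2 and 12.2 CPM on control feeders, a log2 fold change of 4.11 ± 0.13 (SE) at an adjusted p of 8.84e-18, where no separate culture had a mean above 9.56 ± 2.35 CPM. Its receptor Il1rl1 was at 12.2, 10.9 and 11.2 CPM on p53-defective feeders and 95.6, 93.5 and 96.3 CPM on control feeders (-3.06) and at 504 ± 87.5 CPM in control feeders alone. Ligand and receptor were thus each separate between groups and opposite in direction. Cxcl12, the ligand of CXCR4, rose (4.21), while the neutrophil chemokine Cxcl5 was at 8.43, 8.86 and 5.7 CPM on p53-defective feeders and 183, 188 and 195 CPM on control feeders (-4.62) and Ccl11 (-5.64) and Cxcl10 (-4.00) fell.

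Of NF-kB targets and acute-phase genes, 10 of 19 were called higher, 7 lower and 2 neither, median 0.44 (-1.89 on the feeder scale); the number lower dropped to 3 without any 1 of the control co-culture replicates and to 4 without replicate 3 of the p53-defective co-culture, and the median was -0.03 with the length trend removed. Complement C3 was at 1582, 1441 and 2072 CPM on p53-defective feeders and 49.4, 50.2 and 53.6 CPM on control feeders (5.06), and Nfkb2, the p100 subunit of the non-canonical arm, at 178, 183 and 170 CPM on p53-defective feeders and 26.1, 26.4 and 22.9 CPM on control feeders (2.82), with its partner Relb higher (1.58). Nos2, inducible nitric oxide synthase, was at 78.2, 89.2 and 88.8 CPM on p53-defective feeders and 25.1, 25.6 and 21.3 CPM on control feeders (1.83). The separate cultures held 1.65 ± 0.85 CPM of Nos2 in p53-defective feeders, 0 in control feeders, 2.21 ± 0.547 in feeder-depleted ES cells and 2.04 ± 0.291 with ATN161, so that both co-cultures lay above each of them. The adhesion molecule Icam1 fell, from 207, 202 and 200 to 24.6, 23 and 28 CPM (-3.01).

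**Figure D3:**
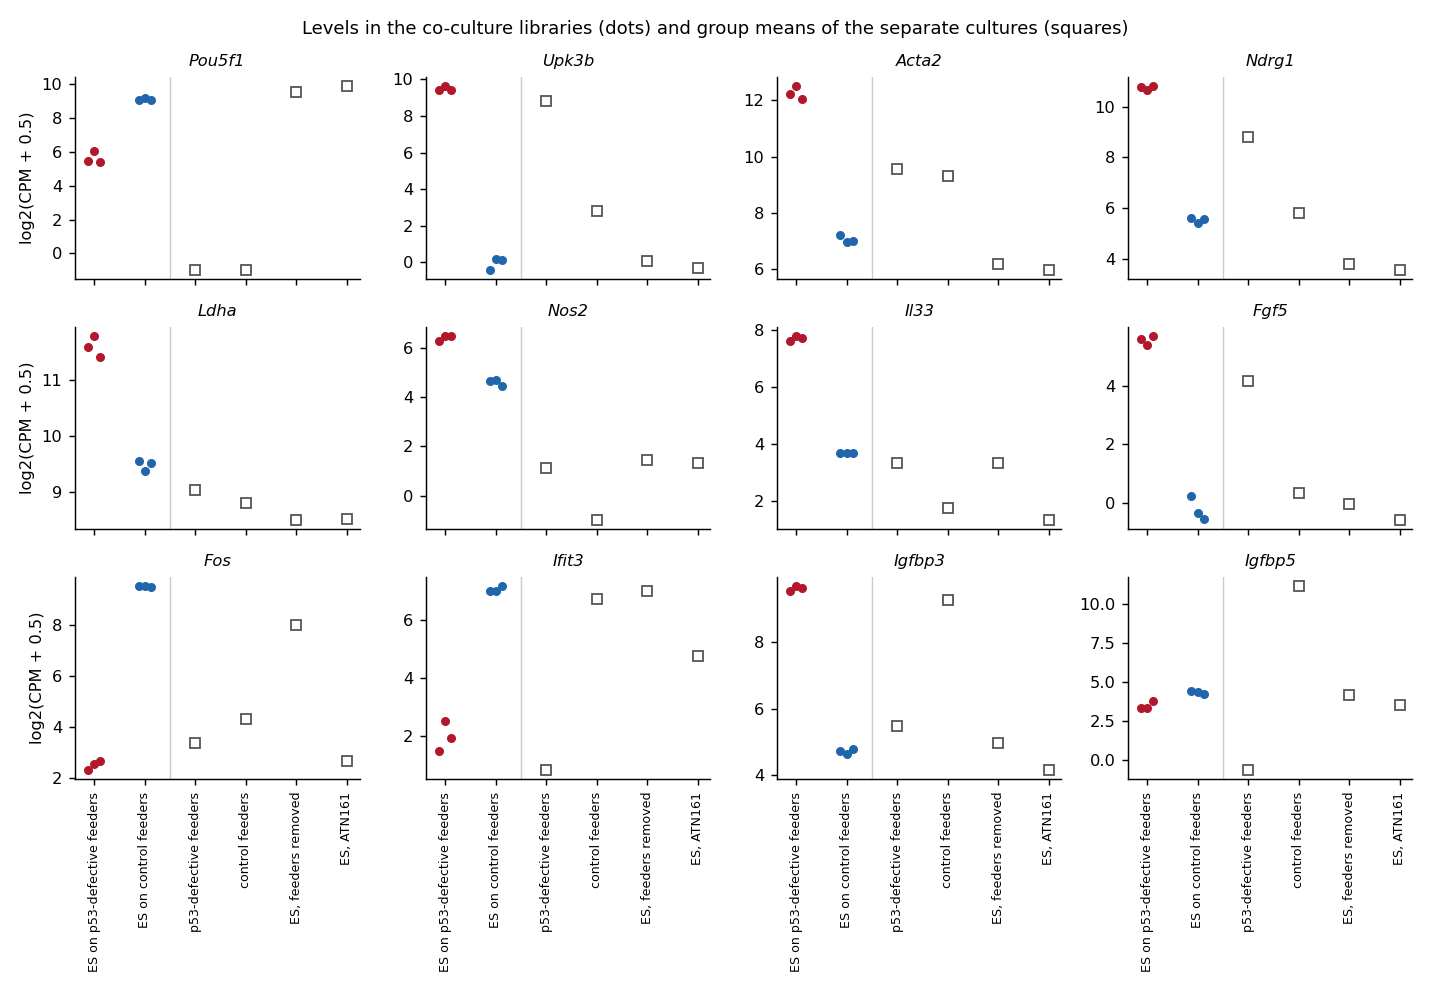
Levels of 12 genes as log2(CPM + 0.5): dots are the 3 libraries of ES cells on p53-defective feeders (red) and on control feeders (blue), squares are means of 3 libraries of the separate cultures. Nos2 is above all separate cultures in both co-cultures; Acta2, Il33 and Ndrg1 are above them on p53-defective feeders; and Igfbp3 and Igfbp5 differ between co-cultures otherwise than between the feeders alone.

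Type I interferon response genes, which cells induce against viruses, fell as a group. Of 22 members 20 were called lower and 2 higher, median -2.74 (0.64 on the ES scale); the 2 higher were Xaf1 (0.36) and Ifi35 (0.31), and 1 was left without replicate 2 of the p53-defective co-culture. Summed over the list they were at 410, 436 and 407 CPM on p53-defective and 1642, 1673 and 1648 CPM on control feeders. Rsad2, viperin, was at 0.182, 0.125 and 0.297 CPM on p53-defective feeders and 19.2, 22.5 and 20.5 CPM on control feeders, a log2 fold change of -6.63 ± 0.21 (SE) at an adjusted p of 1.3e-17. Isg15, the ubiquitin-like modifier, was at 11.9, 15.2 and 12.1 CPM on p53-defective feeders and 87.6, 87.7 and 76.6 CPM on control feeders (-2.69). Ifi44 was at 0.728, 0.624 and 0.416 CPM on p53-defective feeders and 43.6, 43.4 and 40.3 CPM on control feeders (-6.16), and Usp18, which removes ISG15 and limits the receptor, fell as well (-3.72). The 3 genes given by library were lower in every p53-defective library than in any control library. Genes of the Oas family, Oas2 at 0.243, 0.312 and 0.238 against 43.7, 41.3 and 45.4 CPM and Oasl2 at 8.13, 8.42 and 8.44 against 98.9, 103 and 101 CPM, showed the same order, though copies of that family are alike enough for reads to be shared. Between the feeders alone the median of this list was -4.07.

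The promoters of Rsad2 and Isg15 are shown for the core of the interferon response element, GAAANNGAA on either strand. Windows were found for 16 of 22 list members only, under the 80% needed, so that a share over the list is void; 9.76% of all 27025 promoters held the motif. The 250 bases before the start of Rsad2 (chr12:26456453-26456702, minus strand) and Isg15 (chr4:156200819-156201068, minus strand) follow, from RefSeq on GRCm38.p6, 5′ to 3′ on the strand of the gene. Capitals mark every match, 1 in Rsad2 and 3 overlapping in Isg15.
Rsad2: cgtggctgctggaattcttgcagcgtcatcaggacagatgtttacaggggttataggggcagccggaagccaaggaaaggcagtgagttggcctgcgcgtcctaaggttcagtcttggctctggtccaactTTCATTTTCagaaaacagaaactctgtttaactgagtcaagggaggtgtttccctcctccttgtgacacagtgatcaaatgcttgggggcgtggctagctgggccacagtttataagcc
Isg15: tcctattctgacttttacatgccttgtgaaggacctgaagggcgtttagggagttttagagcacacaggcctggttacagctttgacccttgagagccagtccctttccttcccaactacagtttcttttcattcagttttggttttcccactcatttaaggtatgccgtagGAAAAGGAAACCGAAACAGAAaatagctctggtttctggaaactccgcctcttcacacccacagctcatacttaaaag

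MHC and antigen presentation genes split near the shares over all genes, 36.6% higher and 46.7% lower. Of the list, 7 of 17 were called higher, 8 lower and 2 neither, median -0.20 (3.19 on the ES scale). Without any 1 of the control replicates 4 were lower, and without replicate 3 of the p53-defective co-culture 5 were. The class II chain H2-Eb1 (-3.17), the class I gene H2-D1 (-1.10) and the class I transactivator Nlrc5 (-2.06) fell, and the class II chaperone Cd74 (2.32) and the loading factor tapasin (Tapbp, 1.66) rose.

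AP-1 and other immediate early genes, induced within minutes by serum, growth factors or handling, were mostly lower: 5 of 23 were called higher, 14 lower and 4 neither, median -1.36 (2.03 on the ES scale). Fos was at 4.49, 5.3 and 5.82 CPM on p53-defective feeders and 732, 737 and 723 CPM on control feeders, a log2 fold change of -7.13 ± 0.10 (SE) at an adjusted p of 6.69e-23. Fosb was at 1.82, 2.31 and 2.44 CPM on p53-defective feeders and 530, 648 and 504 CPM on control feeders (-8.0) and Egr1 at 42.4, 44.9 and 47.5 CPM on p53-defective feeders and 1040, 1191 and 1071 CPM on control feeders (-4.61). The groups were far apart for all 3. Fos was low in both feeder cultures (9.89 ± 0.985 and 19.6 ± 1.2 CPM, p53-defective and control) and with ATN161 (5.8 ± 0.625), intermediate in feeder-depleted ES cells (255 ± 9.83), and above all of these in the control co-culture. The RNA-decay factor Zfp36 (-3.41) and the phosphatase Dusp1 (-3.17) fell with them, while Myc was at 100, 97.3 and 103 CPM on p53-defective feeders and 13.9, 15.3 and 14.1 CPM on control feeders (2.79) and Ier3 (2.12), Maff (2.09) and Fosl2 (1.45) rose. The time from handling to lysis is not given in the labels, and its part in these values was not tested.

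ES cell genes fell under the common scaling, and the ES scale shows how they differed among themselves. All 18 ES cell markers were called lower, with a median of -3.86 that shrank to -0.48 on the ES scale; their sum was 391, 529 and 396 CPM on p53-defective and 4349, 4523 and 4506 CPM on control feeders, against 180 and 167 CPM in the feeders alone. Pou5f1 was at 43.5, 66.5 and 42.8 CPM on p53-defective feeders and 540, 583 and 549 CPM on control feeders; its log2 fold change was -3.45, and -0.08 on the ES scale. Nanog was -3.49 and Sox2 -4.05, or -0.12 and -0.68 on the ES scale. As a sum, ES markers were thus above the level of feeders alone in the p53-defective co-culture. They were nearer to the proportion of the other ES-specific genes than the common scaling shows. Klf4, 1 of the 18, was however below all 12 libraries of the separate cultures by the 2-fold rule used further on.

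On the ES scale, 145 of the 432 ES-specific genes were called higher and 165 lower, and 72 in each direction changed at least 2-fold. These same genes set the scale, so a near-even split was built in and is not a result. Values above 0 on that scale need care where feeders express the gene: 326 of the 432 were below 1 CPM in p53-defective feeders. Dnmt3l, the cofactor of de novo DNA methylation, was at 2.77 on the ES scale, with 124, 134 and 120 CPM on p53-defective feeders and 198, 187 and 193 CPM on control feeders and 1.54 ± 0.529 CPM in p53-defective feeders. Others near the top, with values on the ES scale, were the decarboxylase Ddc (4.15), the inositol kinase Itpk1 (2.95), the connexin Gjb5 (2.91), Gm8300 (2.67), the autophagy receptor Calcoco2 (2.47) and the glutathione transferase Gsta4 (2.47).

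At the other end, Sall1, a zinc finger factor, was at 1.21, 1.68 and 1.31 CPM on p53-defective feeders and 81.1, 86.5 and 78.2 CPM on control feeders, or -2.49 on the ES scale. Tdh, the threonine dehydrogenase that feeds one-carbon metabolism in mouse ES cells, was at 1.88, 2.62 and 1.31 CPM on p53-defective feeders and 102, 118 and 110 CPM on control feeders, or -2.45 on the ES scale. Both fell further than the ES-specific genes as a whole, and their groups were apart. The remaining genes of this end, with values on the ES scale, were Gm15023 (-3.27), the slit diaphragm gene Nphs1 (-2.58), the prohormone Trh (-2.40), the formin Fmn2 (-2.38), nebulin (Neb, -2.35) and the glutathione peroxidase Gpx2 (-2.29).

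Lists of ES cell function mostly followed the ES share. Among Dppa, RNA-binding and other ES cell factors all 14 were called lower (median -3.79, -0.41 on the ES scale); Trim71, a let-7 target and RNA-binding ubiquitin ligase, was among the lowest at 0.91, 1.75 and 2.08 CPM on p53-defective feeders and 40, 46.8 and 44 CPM on control feeders (-1.41 on the ES scale), and Dppa2 was 0.31 there. Of formative and primed genes, 2 of 14 were called higher, 12 lower and 0 neither (-0.01 on the ES scale, -3.38 before), with Zic2 (-4.64) and Grhl2 (-4.94) among those lower. Of germ cell and meiosis genes, 1 of 20 were called higher, 18 lower and 1 neither, median -2.83 (0.55 on the ES scale): Dazl, an RNA-binding protein of germ cells, was at 16.9, 15 and 16.2 CPM on p53-defective feeders and 110, 121 and 114 CPM on control feeders, and Tex19.1 (-4.15) and Piwil2 (-3.26) fell while the Tudor protein Tdrkh was higher (0.68).

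Chromatin regulators fell less than the ES cell markers. In the DNA methylation list, 1 of 8 were called higher, 7 lower and 0 neither, median -1.62 (1.76 on the ES scale). The methyltransferase Dnmt3b was at 9.88, 11.2 and 11.6 CPM on p53-defective feeders and 116, 121 and 118 CPM on control feeders and the demethylating oxygenase Tet1 at 7.4, 5.74 and 11.5 CPM on p53-defective feeders and 144, 151 and 139 CPM on control feeders, while Tet3 was the member called higher (0.94). All 18 Polycomb and ES chromatin regulators were called lower (median -1.67, 1.71 on the ES scale), among them Jarid2, a PRC2 subunit, at 38.3, 35 and 44 CPM on p53-defective feeders and 244, 256 and 243 CPM on control feeders, and Mtf2 (-2.34), Epop (-2.89) and Trim28 (-1.70). Their direction was opposite to that between the feeders alone, where the median was 0.48. Of imprinted genes, 0 of 17 were called higher, 15 lower and 2 neither, median -1.2 (2.20 on the ES scale). Mest fell from 95.5, 105 and 100 to 5.28, 5.05 and 5.88 CPM (-4.21), in the order of the feeders alone (395 ± 25.8 CPM in control and 0.809 ± 0.21 in p53-defective feeders), and Grb10 (-2.45), Igf2 (-0.70) and Cdkn1c (-0.98) were lower with it.

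Threonine, glycine and one-carbon metabolism genes split: 8 of 17 were called higher, 8 lower and 1 neither, median 0.04 (-2.29 on the feeder scale), and the median was -0.04 without replicate 2 of the p53-defective co-culture, -0.21 with the length trend removed and -0.10 with the GC trend removed. Beside Tdh, the glycine cleavage enzymes Gldc (10.7, 11.9 and 14.3 CPM on p53-defective feeders and 203, 200 and 203 CPM on control feeders) and Amt (-3.10) fell. Genes of serine and folate metabolism rose: the mitochondrial enzyme Aldh1l2 was at 146, 113 and 179 CPM on p53-defective feeders and 7.42, 6.67 and 7.78 CPM on control feeders, with 826 ± 121 CPM in p53-defective feeders alone, and Phgdh, the first enzyme of serine synthesis, at 557, 574 and 492 CPM on p53-defective feeders and 112, 113 and 111 CPM on control feeders. For each gene given by library the groups did not overlap.

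Cell cycle genes fell. All 24 G2/M and mitosis genes were called lower, with a median of -1.99 (1.39 on the ES scale), although the same list was 1.78 between the feeders alone. Cyclin B1 (Ccnb1) was at 49.4, 63.3 and 50 CPM on p53-defective feeders and 368, 372 and 398 CPM on control feeders, with 74 ± 6.98 CPM in p53-defective and 17.1 ± 0.918 in control feeders alone. Of replication and G1/S genes, 4 of 24 were called higher, 19 lower and 1 neither, median -1.26 (2.12 on the ES scale), with Mcm10 (-3.13) and Pole (-2.57) lower. CDK inhibitors, which hold the cycle, were mostly higher: 5 of 8 were called higher, 2 lower and 1 neither, median 1.62 (-0.71 on the feeder scale). Cdkn2a, the Ink4a/Arf locus, was at 234, 269 and 201 CPM on p53-defective feeders and 65.8, 62.4 and 63.2 CPM on control feeders and exceeded all separate cultures (87.9 ± 4.92 and 30.2 ± 1.94 CPM in p53-defective and control feeders). Cyclin B1 and Cdkn2a were apart between groups, in opposite directions. Cdkn2c (3.40), Cdkn2d (2.07), Cdkn2b (1.71) and Cdkn1b (1.53) rose, and the p53 target Cdkn1a was not called (-0.16).

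Of p53 target genes, 3 of 27 were called higher, 22 lower and 2 neither, median -1.21 (2.18 on the ES scale), beside -1.02 between the feeders alone. The feedback ligase Mdm2 (-2.90), the antiproliferative Btg2 (-3.08) and the stress sensor Sesn2 (-3.27) fell. The 3 called higher were Sesn1 (0.80), Fas (0.37) and Rrm2b (0.32), of which 1 was called without replicate 1 of the p53-defective co-culture. Many members are expressed in ES cells too, and the part of the ES share in these values was not tested.

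ATF4 stress response genes, induced when amino acids run short, were more often higher: 12 of 21 were called higher, 7 lower and 2 neither, median 0.69 (-1.64 on the feeder scale). Fgf21, a secreted stress hormone and ATF4 target, was at 17.2, 15 and 18.2 CPM on p53-defective feeders and 0.0982, 0.0476 and 0 CPM on control feeders (8.25), and at 97.7 ± 4.82 and 46 ± 7.97 CPM in p53-defective and control feeders alone. It was thus present in both feeder cultures and nearly absent from the control co-culture. The lipoprotein receptor Vldlr (3.13) and the proline synthesis enzyme Aldh18a1 (1.61) rose as well.

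The Fgf21 promoter is shown for the ATF4 composite element core TGATGNAA, found on either strand in 8 of 19 promoters of the list (42.1%) against 4.51% of all 27025. These are the 250 bases before its start (chr7:45615491-45615740, minus strand; RefSeq, GRCm38.p6), 5′ to 3′ on the strand of the gene, with the match in capitals.
Fgf21: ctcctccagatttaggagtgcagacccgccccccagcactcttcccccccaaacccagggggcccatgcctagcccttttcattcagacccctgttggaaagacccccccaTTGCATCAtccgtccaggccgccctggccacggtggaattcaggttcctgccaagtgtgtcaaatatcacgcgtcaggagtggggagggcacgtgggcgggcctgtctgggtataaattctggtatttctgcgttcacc

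Other stress and metabolic lists moved less. Of cholesterol and fatty acid synthesis genes, 17 of 30 were called higher, 7 lower and 6 neither, median 0.43 (-1.9 on the feeder scale), with the desaturases Scd1 (2.39) and Scd2 (2.19) and squalene epoxidase (Sqle, 1.83) higher and the elongase Elovl6 lower (-2.77). Of chaperones of the endoplasmic reticulum and UPR genes, 10 of 20 were called higher, 5 lower and 5 neither, median 0.13 (-2.20 on the feeder scale), with 3 lower without any 1 of the control replicates; the sensor Ern1 (1.63) and Herpud1 (1.18) were higher. Heat shock genes were balanced (6 of 18 were called higher, 7 lower and 5 neither, median 0.02 (-2.32 on the feeder scale), -0.01 without replicate 1 of the p53-defective co-culture and -0.16 with the length trend removed). So were NRF2 and glutathione genes (7 of 17 were called higher, 8 lower and 2 neither, median -0.22 (3.17 on the ES scale)), with Mgst1 higher (2.64) and Txnrd1 (-1.28) and Nqo1 (-1.27) lower. Of autophagy and lysosome genes, 13 of 20 were called higher, 4 lower and 3 neither, median 0.37 (-1.96 on the feeder scale); the ATG8 family member Gabarapl1 (1.99) and cathepsin Z (Ctsz, 1.52) rose.

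Ribosomal protein genes and subunits of oxidative phosphorylation were called higher in large numbers but have short transcripts, with median lengths of 926 and 861 bases against 3107 for all genes. Of ribosomal protein genes, 72 of 76 were called higher, 1 lower and 3 neither, median 0.84 (-1.49 on the feeder scale); the member lower was Rpl34 (-1.5), and 2 were lower without replicate 2 of the p53-defective co-culture. With the length trend removed, 40 were higher and 19 lower, with a median of 0.14. Of oxidative phosphorylation subunits, 59 of 82 were called higher, 10 lower and 13 neither, median 0.65 (-1.68 on the feeder scale), and with the trend removed 30 were higher and 39 lower, with a median of -0.10. The calls of these lists thus moved with transcript length, unlike those of glycolysis (median length 2837 bases).

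A mixture of RNA lies between its parts when neither part changes, so genes outside the range of the separate cultures were counted as a description, without a test. In the p53-defective co-culture 562 genes (3.65%) were above, and 360 (2.34%) below, all 12 libraries of the separate cultures with a mean at least 2-fold beyond the nearest group mean. In the control co-culture 21 (0.136%) were above and 0 (0%) below. Of the 562, 559 were also called higher than in the control co-culture. They held 1 of the 432 ES-specific genes and 3 of the 55 feeder-specific genes, beside 3.65% of all genes tested. The 562 had a median transcript length of 1888 bases and the 360 one of 5404, and with the length trend removed 425 genes were above and 225 below; with the GC trend removed the numbers were 474 and 179. Scaling by library totals gave 337 above and 608 below, so the number on each side depends on scaling, and the part of depth and RNA quality was not tested further.

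Above the range, Nos2 stood 31.6-fold and Il33 21-fold from the nearest group mean with an offset of 0.5 CPM. Others among the 8 farthest were Vwa1, a matrix protein of basement membranes and cartilage, at 31, 36.3 and 31.5 CPM, the selenium-binding protein Selenbp1 at 93.9, 105 and 85.6 CPM and cytidine deaminase (Cda) at 25.5, 28.6 and 20.5 CPM. By list, 14 of 20 glycolysis genes, 9 of 17 hypoxia genes, 6 of 20 contractile genes (Acta2, Cnn1, Tagln, Tagln2, Tpm1 and Tpm2), 6 of 14 mesothelial markers and 5 of 13 members of the keratin list (Krt7, Krt8, Krt14, Krt18 and Krt19) were above. The CDK inhibitors Cdkn2a, Cdkn2b and Cdkn2d, the BMP pathway genes Smad6, Fst and Id3, and the WNT ligands Wnt4 and Wnt9a with Rspo1 were above too. Ribosomal protein genes supplied 7 of 76 and oxidative phosphorylation subunits 7 of 82.

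Below the range, Tenm4, a teneurin adhesion protein, was farthest, 16.8-fold under the nearest mean. It was at 1.09, 1.75 and 2.08 CPM on p53-defective feeders and 30.9, 33.8 and 30.6 CPM on control feeders, and at 35.4 ± 2.64 CPM in p53-defective feeders, 43.7 ± 6.24 in control feeders and 68.3 ± 4.84 in feeder-depleted ES cells. Mat2a, which makes S-adenosylmethionine, was at 47.1, 52 and 45 CPM on p53-defective feeders and 224, 242 and 233 CPM on control feeders where the feeders alone held 418 ± 46.9 and 496 ± 45.5 CPM. The arginine transporter Slc7a3 was at 11.5, 8.17 and 13.2 CPM on p53-defective feeders and 118, 130 and 126 CPM on control feeders, and Mdm4, a p53 inhibitor, at 23, 21.8 and 26 CPM on p53-defective feeders and 169, 154 and 184 CPM on control feeders. Every p53-defective co-culture library was lower than every other library of the series for these 4 genes, and Mdm4 was 4.69-fold under the nearest mean. In the control co-culture Nos2 (9.03-fold), the mast cell and basophil protease Mcpt8 (3.9-fold) and the junctophilin Jph2 (3.33-fold) were among the farthest above, and 6 genes were above in both co-cultures. One of them, Pdk4, which restrains pyruvate oxidation, was at 73.8, 69.1 and 88.1 CPM on p53-defective feeders and 80.8, 68.9 and 74.9 CPM on control feeders with overlapping groups and was not called (0.04).

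**Figure D4:**
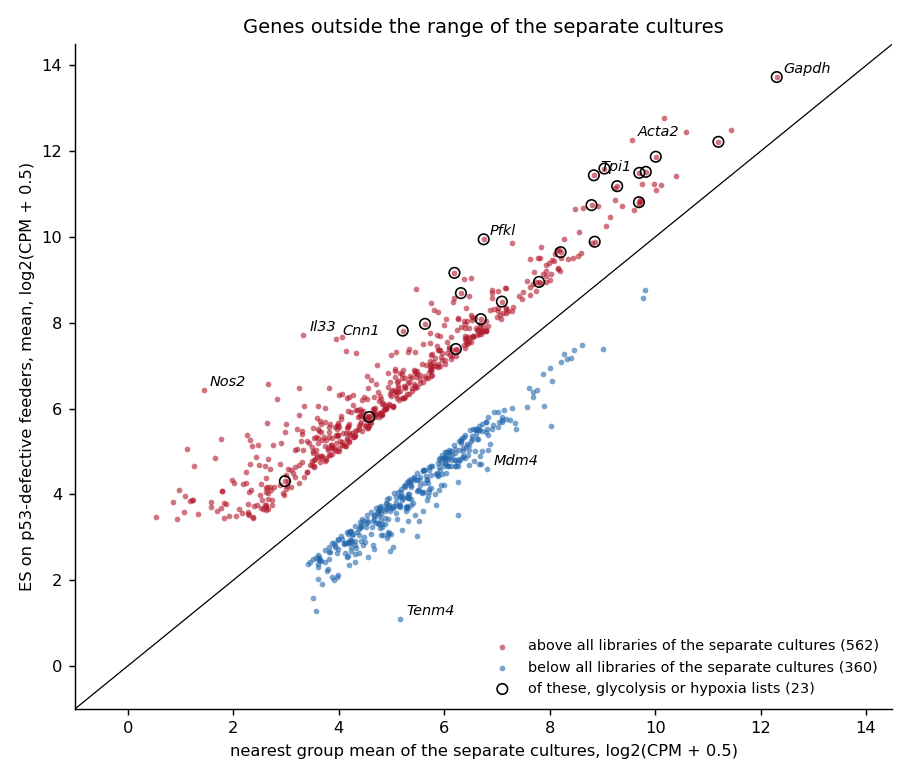
Mean level on p53-defective feeders against the nearest group mean of the 4 separate cultures, both as log2(CPM + 0.5), for the 562 genes above (red) and 360 below (blue) all 12 libraries of the separate cultures; open circles are those above that belong to the glycolysis or hypoxia lists, and the line marks equality. Nos2 and Il33 lie farthest above the line and Tenm4 farthest below it.

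The co-culture difference was then set against that of the feeders alone, with which it shares no library. The difference of the 2 differences was called in 11327 genes (73.6%), 5975 positive and 5352 negative. Across genes the 2 differences had a Pearson correlation of 0.37, and genes share libraries, so it is a description. Of genes called in both comparisons, 2466 were higher and 2979 lower in both, 1900 were higher in co-culture but lower in the feeders alone, and 2187 the reverse; the difference itself was called in 4087 of those of opposite direction.

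The largest positive difference was that of Igfbp5, a binding protein of IGF. It was at 9.58, 9.49 and 13 CPM on p53-defective feeders and 20.7, 19.5 and 18.1 CPM on control feeders, against 0.125 ± 0.108 CPM in p53-defective and 2308 ± 230 CPM in control feeders alone, a difference of 13.27 ± 0.27 (SE). Postn, the matricellular protein periostin, was at 33.4, 28.6 and 32.8 CPM on p53-defective feeders and 121, 114 and 124 CPM on control feeders, with 3.06 ± 1.07 and 5915 ± 766 CPM in the feeders, a difference of 8.99 ± 0.21 (SE). Both were called lower on p53-defective feeders in co-culture too, by far less than between the feeders. Igfbp3 (8.75 ± 0.17 (SE)), the collagen-binding Fmod (9.42 ± 0.43 (SE)) and Mfap4 (8.98 ± 0.28 (SE)), as well as the kinesin Kif1a (10.29 ± 0.28 (SE)) and the homeobox gene Irx1 (10.04 ± 0.66 (SE)) were among the largest too. The largest negative differences were in Sycp1, of the synaptonemal complex (-12.56 ± 0.41 (SE)), the transcription factor Dmrt1 (-10.60 ± 0.56 (SE)), and the multicopy genes Rex2, Zfp978, Zfp600, Zfp980, Zscan4f and Usp17la, which near-identical copies make uncertain; several of these are at 0 in a feeder group, so that their fitted size is no bound.

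**Figure D5:**
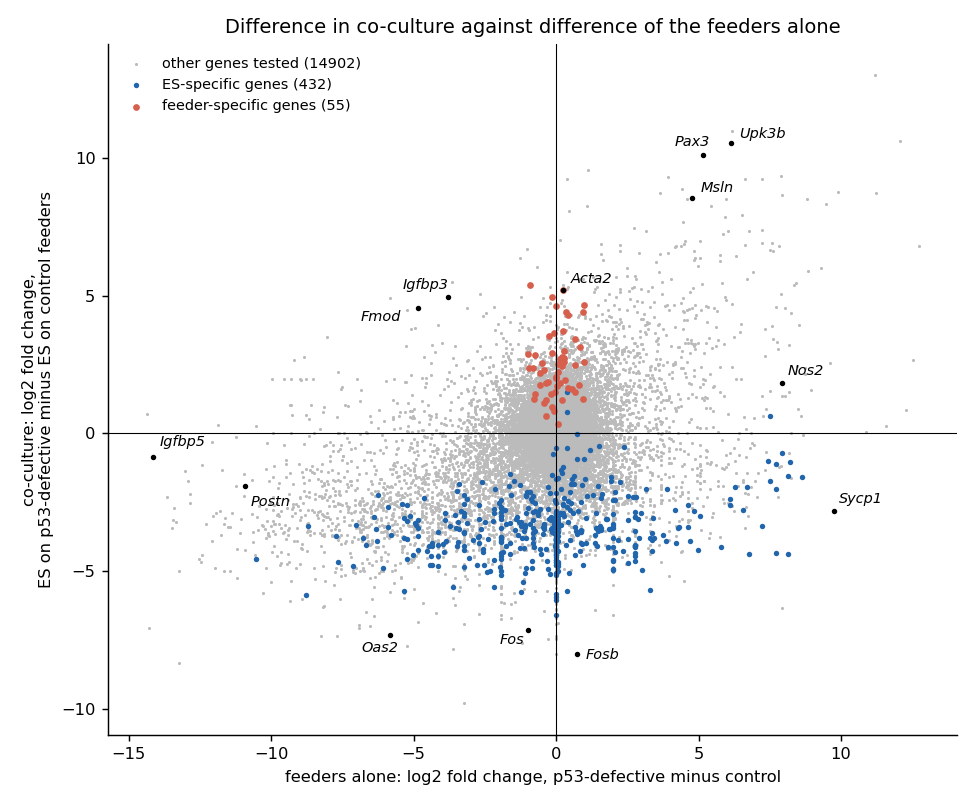
Log2 fold change in co-culture (vertical) against log2 fold change between the feeders alone (horizontal), both p53-defective minus control under TMM scaling, for all genes tested, with 432 ES-specific genes in blue and 55 feeder-specific genes in red. ES-specific genes lie low in co-culture (median -3.43) at any feeder value, the feeder-specific ones lie high (median 2.37), and on the ES scale the whole cloud moves up by 3.38, on the feeder scale by -2.33.

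Feeder-specific genes also differed among themselves on the feeder scale, where 20 of 55 were called higher and 22 lower. As these genes set that scale, the near-even split was again built in. After Col8a2 came, with values on the feeder scale, Acta2 (2.88), the hydroxysteroid dehydrogenase Akr1c14 (2.63), Timp3 (2.34), neuritin (Nrn1, 2.29), Siglecg (2.09), the potassium channel subunit Kcnab1 (2.07) and Csdc2 (1.98). Lowest on that scale were the zinc finger genes Zfp334 (-1.5) and Zfp9 (-1.08) and Pogk (-1.39), followed by the glycine transporter Slc6a9 (-1.07), collagenase 3 (Mmp13, -0.91), the BMP antagonist Grem1 (-0.90), Hoxb3 (-0.84) and Plekhh3 (-0.83). Fibroblast markers as a list had 10 of 20 called higher, 5 lower and 5 neither, median 0.31 (-2.02 on the feeder scale), and their sum was 22120, 19251 and 27494 CPM on p53-defective and 8466, 8061 and 8375 CPM on control feeders. The feeders alone had the opposite order, with a list median of -2.41 and summed means of 8092 CPM in p53-defective and 43274 CPM in control feeders.

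Markers of further cell types were measured to see what else the cultures could hold. Of endoderm genes, 4 of 13 were called higher, 7 lower and 2 neither, median -1.89 (1.5 on the ES scale); Gata4, which mesothelium also expresses, was at 75.4, 71.7 and 78.4 CPM on p53-defective feeders and 1.18, 1.67 and 1.02 CPM on control feeders, with 58.7 ± 6.22 CPM in p53-defective feeders alone, and Gata6 rose (3.29). Trophectoderm genes (4 of 10 were called higher, 5 lower and 1 neither, median -0.48 (2.89 on the ES scale)) and neural genes (5 of 11 were called higher, 6 lower and 0 neither, median -0.27 (3.10 on the ES scale)) did not go one way. Of mesoderm genes, 3 of 8 were called higher, 2 lower and 3 neither, median 0.07 (-2.26 on the feeder scale), or -0.41 with the GC trend removed, and Hand2 was higher (4.27). Of skeletal muscle genes, 5 of 8 were called higher, 3 lower and 0 neither, median 1.98 (-0.34 on the feeder scale), with desmin (Des) higher (2.69). Macrophage markers summed to 40.4, 42.9 and 39.9 CPM on p53-defective and 14.7, 15.5 and 15.9 CPM on control feeders. The feeders alone held 13.1 CPM where p53-defective and 207 CPM where control. In the p53-defective co-culture most of the sum was Cd14 and Cd68, with means of 19.2 and 17.8 CPM. Of the list, 3 of 14 were called higher and 2 lower. Those higher were Csf1r (4.91), Cd14 (3.92) and Cd68 (1.22), and those lower Mrc1 (-2.17) and Itgam (-4.11). The macrophage genes C1qa, C1qb and C1qc were at 0.0202, 0.0198 and 0 CPM on p53-defective feeders and at 0 on control feeders. Of endothelial markers, 2 of 9 were called higher, 4 lower and 3 neither, median -0.27 (3.08 on the ES scale); Pecam1, which ES cells express here (102 ± 2.93 CPM in feeder-depleted ES cells), fell (-3.97).

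Hox cluster genes, which record position along the body, moved in both directions: 15 of 38 were called higher, 18 lower and 5 neither, median -0.27 (3.10 on the ES scale), beside -2.55 between the feeders alone. Hoxa3 was at 13.9, 12.9 and 14 CPM on p53-defective feeders and 1.18, 0.953 and 1.56 CPM on control feeders (3.46), and its groups were apart. Anterior genes were found in both directions, with Hoxa2 (3.79), Hoxb2 (3.27), Hoxa5 (2.93) and Hoxb4 (2.27) called higher and Hoxd1 (-1.84), Hoxb5 (-1.71), Hoxc5 (-1.33) and Hoxc4 (-1.06) lower. Central and posterior genes were too, with Hoxa7 (1.94), Hoxc11 (1.83), Hoxc12 (1.05) and Hoxa10 (0.99) higher and Hoxd10 (-3.35), Hoxc6 (-2.86) and Hoxd13 (-2.52) lower. The counts in each direction lie near the shares over all genes, 36.6% higher and 46.7% lower.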

How the data were processed

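Per the labels' protocols, Trizol was used for RNA and an Illumina TruSeq mRNA kit for libraries; whether counting used strand is not given in the sources used here. The authors' deposited table gives estimated read counts per RefSeq transcript (75416 transcripts; 32625 curated and 42791 predicted). Tools in the submitters' processing notes are DESeq2 1.2.10, StringTie 1.3.3b, SAMtools 1.4 and HISAT2 2.1.0, with the build mm10 (GRCm38). The deposited expected counts were summed per gene (19630 genes, 19482 with a symbol), of which 89.3% were whole within 0.05, and rounded.

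All 18 libraries entered 1 fit with edgeR 4.0.16 in R 4.3.3 (filterByExpr, TMM, robust quasi-likelihood, Benjamini-Hochberg, two-sided); 4241 genes were filtered out, and the common biological coefficient of variation was 0.0792. Library totals in tested genes were 15.12 to 19.83 M counts, and the correlation between co-culture replicates was 0.9892 to 0.995. No co-culture replicate pair agreed within sampling noise. The test was checked on simulated data. The members and lists were chosen with earlier results of these data known. Genes named are the 12 largest rises and falls among called genes whose groups were apart and whose mean was at least 10 CPM, the 8 extreme genes on each other measure, and up to 5 members of each list with the smallest p, plus members whose role orders the account; a few beyond these were chosen after their values were seen. Lengths and GC content are those of the longest protein-coding GENCODE transcript on GRCm38, matched for 97.2% of tested genes. Alternatives were DESeq2 size factors, DESeq2 1.42.0, limma-voom (limma 3.58.1), other filters, scalings and thresholds, a replicate block, leaving out each co-culture library, and trends in length and GC content, the last added after the data were seen. Some items that the rule would name are not reported here.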

Additional observations from a re-analysis of the deposited data

Results flagged for a closer look

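The difference between the p53-defective and the control co-culture departed from that between the feeders alone in 11327 genes, by the edgeR test of the difference between both differences with Benjamini-Hochberg adjustment. Among the largest positive departures, on the log2 scale, were those of Igfbp5 (13.27), Kif1a (10.29), Irx1 (10.04), Fmod (9.42), Postn (8.99), Mfap4 (8.98) and Igfbp3 (8.75). The largest negative ones were those of Sycp1 (-12.56), Rex2 (-12.53), Zfp978 (-12.05), Zfp600 (-11.16), Dmrt1 (-10.60), Zscan4f (-10.19), Usp17la (-10.07) and Zfp980 (-9.92). A group at or near 0 counts enters many of these, so their fitted size depends on the prior count of the fit. No group had enough libraries for the check of single outlying samples, which needs 4.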

How the results depend on the processing

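Scaling decided how genes split into higher and lower. Libraries scaled on ES-specific genes gave 13504 genes higher and 411 lower (13112 and 243 at 2-fold or more), and those scaled on feeder-specific genes gave 484 and 14261 (308 and 13367); with the ES-specific scaling the difference from the feeders alone was called positive in 13025 and negative in 519 genes. Where specific genes were taken at 4-fold in place of 8-fold, 237 ES-specific genes were higher and 292 lower, and 80 feeder-specific genes higher and 94 lower; at 32-fold 95 ES-specific genes were lower, and feeder-specific genes were too few to run. For the range of the separate cultures, a 1.5-fold margin gave 1189 genes above and 835 below in the p53-defective and 86 and 21 in the control co-culture. Library totals in place of TMM gave 337 above and 608 below. With the length or GC trend removed 225 and 179 were below.

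Leaving out each co-culture library in turn gave 5415 to 6008 genes higher and 6577 to 7153 lower, 136 to 149 and 145 to 163 ES-specific genes on the ES scale, 18 to 25 and 17 to 23 feeder-specific genes on the feeder scale, 5821 to 6126 positive and 5126 to 5382 negative differences from the feeders, and 502 to 617 genes above and 316 to 429 below the range on p53-defective feeders, with 21 to 23 above and 0 to 1 below on control feeders, the 1 without control replicate 3.

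Some list medians near 0 changed sign. They were those of one-carbon genes (-0.04 without p53-defective co-culture replicate 2 and up to 0.24 without another library, -0.21 without the length trend, -0.10 without the GC trend), basement membrane genes (-0.02 with limma-voom, -0.11 without p53-defective co-culture replicate 3 and up to 0.22 without another, -0.13 without the GC trend), heat shock genes (-0.01 without p53-defective co-culture replicate 1 and up to 0.12 without another, -0.16 without the length trend), NF-kB targets (-0.03 without the length trend), oxidative phosphorylation subunits (-0.10 without the length trend), integrins (-0.19 without the GC trend) and mesoderm genes (-0.41 without the GC trend). Not counting the ES and feeder scales, which turn many genes, 0 of 4687 values recomputed for 396 genes changed direction and 8 lost their call, all of Ndufa4l2 and Grb14. The causes were not tested.

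Replicate numbers do not pair the samples: same-numbered libraries deviated from their group means with correlations of -0.0754, -0.049 and -0.137. With the number as a block, 5617 genes were higher and 7179 lower (2768 and 4533 at 2-fold or more), 146 and 163 ES-specific and 19 and 21 feeder-specific genes were called, and the difference from the feeders was positive in 5962 and negative in 5328 genes. Depth of 15.12 to 19.83 M counts limits genes near 0. A floor was used for the folds of Muc16 and Gbp2b, which had no count in the control co-culture. Other log2 fold changes from levels near 0, such as those of Fgf21 and Krt13, are fitted values without a floor.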
